A study of Mus musculus with 6 samples.

Results

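The H3K27ac landscape of 10 mouse genes of MHC class I antigen presentation was examined in B16 F10 cells, a mouse melanoma line. The genes were H2-K1, H2-D1, B2m, Tap1, Tap2, Tapbp, Psmb8, Psmb9, Nlrc5 and Cd274, 10 of the 21853 protein-coding genes of GENCODE M21. They were chosen by name, and every H3K27ac peak over each gene and 3 kb on either side was taken. The 4 peak lists held 11 such peaks in LP replicate 1, 19 in LP replicate 2, 15 in HP replicate 1 and 20 in HP replicate 2. Peaks of different libraries that overlapped by at least 1 bp were merged, which gave 34 of the 182956 regions of the series.

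The cells were seeded at 100 cells per cm2 and collected on day 5 of the progressive pigmentation model, in which they darken over days in sparse culture. Side scatter in a flow cytometer, which rises with pigment granules, separated low pigment (LP) from high pigment (HP) cells, with 2 replicates of each and no treatment or genetic change given in the labels of either group. Libraries of an IgG antibody on unsorted cells, 1 per replicate number, served the authors as background for peak calling. All groups are the same tumour line, so none represents normal melanocytes, and the sort gates on granularity and not on a gene of the pathway.

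MHC class I molecules show peptides from inside the cell to CD8 T cells. A heavy chain, such as those encoded by H2-K1 and H2-D1, pairs with the light chain B2m. Peptides are cut by proteasomes, which can take up Psmb8 and Psmb9 as interferon-inducible subunits, and are carried into the endoplasmic reticulum by the Tap1 and Tap2 transporter, where Tapbp (tapasin) holds the transporter and the empty heavy chain together. Nlrc5 is the transactivator of class I genes and works through the RFX, CREB/ATF and NF-Y proteins bound at their promoters. Cd274 encodes PD-L1, the checkpoint ligand that restrains T cells, and like the others it is induced by interferon gamma. B16 cells are known for low surface class I that interferon gamma restores. H3K27ac marks active promoters and enhancers.

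The promoters of the 5 genes on which the account below turns are printed here as 250 bases before and 50 after the RefSeq start, on the gene's strand, 5′ to 3′, from RefSeq on GRCm38.p6. H2-K1 lies at chr17:34000298-34000597 on the minus strand, and on the plus strand are H2-D1 at chr17:35262844-35263143, B2m at chr2:122147437-122147736, Tap1 at chr17:34187306-34187605 and Psmb8 at chr17:34197945-34198244. H2-K1, H2-D1 and B2m are shown for the X2 and Y boxes they share, Tap1 because Psmb9 starts from the same stretch on the other strand, and Psmb8 because it had no peak. Capitals mark matches on either strand to an interferon response element (ISRE), an interferon gamma element (GAS, TTCNNNGAA), the core of the X2 box (TGACG) and the Y box (CCAAT).
H2-K1: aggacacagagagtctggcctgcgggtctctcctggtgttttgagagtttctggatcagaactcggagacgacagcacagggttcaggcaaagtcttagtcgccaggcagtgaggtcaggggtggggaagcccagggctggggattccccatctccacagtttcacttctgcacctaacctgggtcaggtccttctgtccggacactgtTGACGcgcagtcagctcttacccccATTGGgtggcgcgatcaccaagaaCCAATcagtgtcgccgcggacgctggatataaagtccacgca
H2-D1: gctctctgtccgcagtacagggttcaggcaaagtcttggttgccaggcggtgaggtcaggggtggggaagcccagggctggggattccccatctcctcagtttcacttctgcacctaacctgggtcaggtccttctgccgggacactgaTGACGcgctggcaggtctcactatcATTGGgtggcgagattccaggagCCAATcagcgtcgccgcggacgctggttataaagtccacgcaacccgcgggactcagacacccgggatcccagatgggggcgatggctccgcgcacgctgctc
B2m: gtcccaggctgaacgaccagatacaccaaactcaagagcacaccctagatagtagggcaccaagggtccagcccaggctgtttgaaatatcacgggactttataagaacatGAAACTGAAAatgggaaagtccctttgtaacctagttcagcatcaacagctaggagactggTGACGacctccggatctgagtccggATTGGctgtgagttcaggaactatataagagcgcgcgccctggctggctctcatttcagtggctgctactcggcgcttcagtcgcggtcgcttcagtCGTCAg
Tap1: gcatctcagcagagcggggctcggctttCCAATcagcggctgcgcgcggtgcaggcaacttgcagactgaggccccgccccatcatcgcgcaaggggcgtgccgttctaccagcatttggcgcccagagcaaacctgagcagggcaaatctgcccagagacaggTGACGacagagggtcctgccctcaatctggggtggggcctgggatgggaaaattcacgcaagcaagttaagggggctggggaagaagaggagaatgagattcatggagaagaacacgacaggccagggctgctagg
Psmb8: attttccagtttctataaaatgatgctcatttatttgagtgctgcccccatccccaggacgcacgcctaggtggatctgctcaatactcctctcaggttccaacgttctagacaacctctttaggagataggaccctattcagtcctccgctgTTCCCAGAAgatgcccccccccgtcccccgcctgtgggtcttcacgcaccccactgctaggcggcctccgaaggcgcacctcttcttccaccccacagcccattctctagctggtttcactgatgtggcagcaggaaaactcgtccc

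The table of promoters matched 8 of the 10 genes, without Tap2 and Nlrc5. An ISRE match was found in B2m at −139 from the start, and the ISRE letters were in 3.40% of all 17492 promoters of this length. Only these fixed letters were searched, so a promoter without a match may still hold a variant of the element. Psmb8 held the only GAS match of the 8, at −97, against 7.83% of all promoters. The X2 core was in 5 of the 8 and in 23.8% of all, and the Y box in 6 of the 8 and in 39.0% of all. Letters of an NF-kB site, left in lower case above, were in 5 of the 8 and in 56.4% of all, and they overlap each other in several promoters. The windows of Tap1 and Psmb9 overlap on opposite strands. Their X2, Y box and NF-kB matches are the same bases, counted for both genes. Cd274 had none of these letters in its window. The melanocyte M box (CATGTG) and the E box (CACGTG), which MITF-family factors can bind, were in 0 of the 8, and in 11.5% and 7.90% of all promoters.

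In H2-K1, H2-D1 and B2m an X2 core was followed by a Y box on the opposite strand, ATTGG as printed. The first bases of the X2 core and the Y box stood at −41 and −16 in H2-K1, −101 and −76 in H2-D1, and −78 and −53 in B2m. The distance was 25 bases in each of these 3, a spacing looked for after the matches had been seen. The same pair at this distance was in 24 of the 17492 promoters (0.137%), among them 3 of the 32 H2- genes, the third being H2-M3. The promoters of H2-K1 and H2-D1 matched at 211 of 239 aligned bases (88.3% identity, 28 mismatches). Reads from such near-copies may be split or misplaced, so the values of both heavy chains and of the other H2 genes are uncertain.

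H3K27ac was measured as the pileup, the number of sequenced fragments that cover the summit of a peak, scaled to 1000000 fragments in each library (scaled pileup). A summit pileup is the depth at 1 base and does not depend on gene length. The LP libraries held 11467942 and 15353176 fragments and the HP libraries 11483830 and 14254904. Peaks were shallowest in LP replicate 1, with a median of 7 raw fragments at the summit, against 11 in LP replicate 2, 10 in HP replicate 1 and 12 in HP replicate 2. A list holds only called peaks, of at least 5 to 6 fragments, or a scaled pileup of 0.351 to 0.436. These are the lowest values of whole lists, and calling against local background can require more fragments at a given place. Where no peak is listed, acetylation was not called at this depth and has no value. Each library is bulk chromatin, so fewer cells with the mark and less mark per cell cannot be told apart. With 2 libraries a group, an exact permutation test of a single value cannot give a two-sided p below 0.333.

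The lineage of the cells was checked with markers. All 7 melanocyte genes (Mitf, Sox10, Tyr, Tyrp1, Dct, Pmel and Mlana) had a promoter peak in LP replicate 2 and in both HP replicates, and 5 had one in LP replicate 1, without Tyrp1 and Mlana. LP replicate 1 did have a peak in the merged promoter region of Tyrp1 (1.66) and Mlana (0.872), but not within 1 kb of a start. Of 18 markers of T, B, myeloid, endothelial, fibroblast and keratinocyte cells, 14 had no promoter peak in any library, among them Cd3e, Cd8a, Ptprc, Cdh5 and Krt14. The fibroblast marker Pdgfra had one in LP replicate 1 (0.698), LP replicate 2 (0.847) and HP replicate 1 (1.57). Endothelial Pecam1 had one in HP replicate 1 alone (0.697). Fibroblast Col1a1 (0.702) and myeloid Csf1r (0.842) had one in HP replicate 2 alone. Over the 18 markers, scaled promoter pileup summed to 0.698 and 0.847 in LP replicates 1 and 2 and 2.26 and 1.54 in HP. The sums came from 1, 1, 2 and 2 genes in the same order. These sums were higher in HP, and their part in the differences below was not tested.

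Most class I genes carried an acetylated promoter, at a low level for a promoter with a peak. A promoter peak is one that overlaps 1 kb on either side of a start of a protein-coding transcript. Such a peak was found for 5 of the 10 genes in LP replicate 1 and for 9 of the 10 in each of the other 3 libraries. Among all protein-coding genes the share was 47.6% in LP replicate 1, 55.7% in LP replicate 2, 52.8% in HP replicate 1 and 55.3% in HP replicate 2. H2-D1, B2m, Tap2, Tapbp and Cd274 had one in all 4 libraries, which 44.6% of protein-coding genes did. Psmb8 had none in any library, as had 37.3% of protein-coding genes.

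The other 4, H2-K1, Tap1, Psmb9 and Nlrc5, had a promoter peak in every library but LP replicate 1, a pattern of 4.47% of protein-coding genes. Tap1 and Psmb9 share theirs, so these are 3 regions. Over all genes with a promoter peak in each of the other 3 libraries, 9.11% had none in LP replicate 1, the library with the fewest peaks (57942, against 64759 to 71529 in HP and 66580 in LP replicate 2). No class I gene had a promoter peak in both HP replicates and neither LP replicate, a pattern of 1.42% of protein-coding genes.

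**Figure D1:**
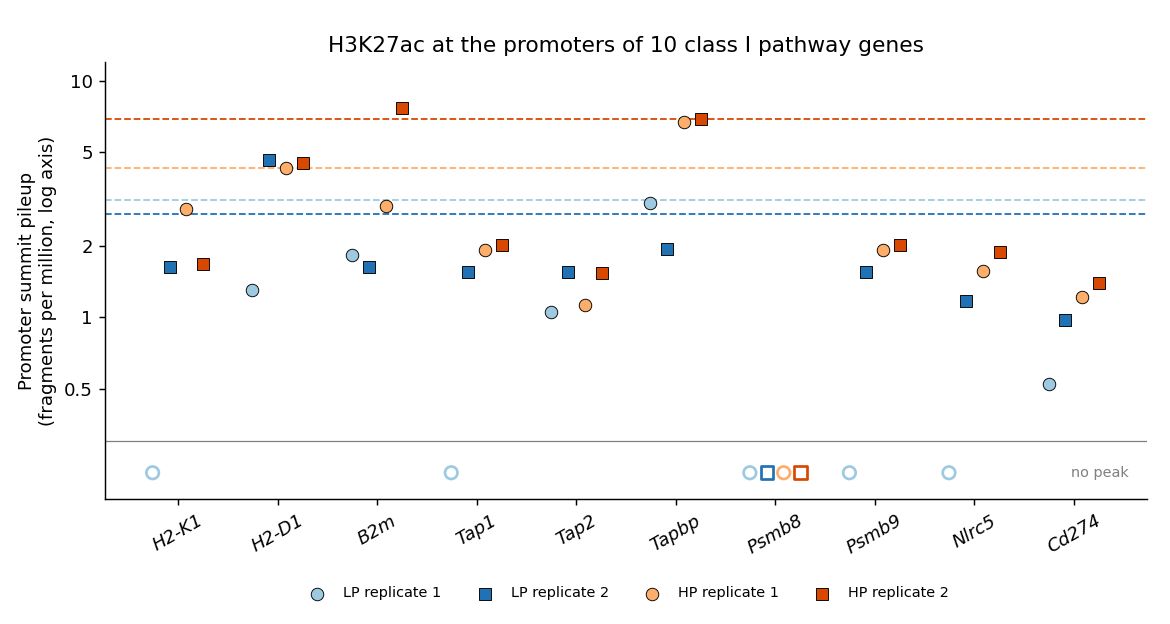
H3K27ac summit pileup at the promoter of each of the 10 genes, scaled to 1000000 fragments, on a log axis, with 1 filled point per library and open points where no promoter peak was listed. Dashed lines are the library medians over all protein-coding promoters with a peak (3.14 and 2.74 in LP, 4.27 and 6.94 in HP). Most points lie below the line of their own library, and Psmb8 has open points alone.

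Within each library the class I promoters ranked low among promoters with a peak. Their median percentile was 15.9 in LP replicate 1, 26.4 in LP replicate 2, 17.5 in HP replicate 1 and 13.3 in HP replicate 2, on a scale where 50 is the library's median promoter. Outside LP replicate 1, this median equals the rank of the region that Tap1 and Psmb9 share, which was entered for both genes. The counts that follow also hold that region for both. In LP replicate 1 all 5 genes with a peak lay below 50, and of 9 genes 8 did so in LP replicate 2, 8 in HP replicate 1 and 7 in HP replicate 2. H2-D1 in LP replicate 2 (77.5), Tapbp in HP replicates 1 and 2 (72.4 and 50.1) and B2m in HP replicate 2 (55.3) were above it. The Tapbp ranks are those of the region at its 5′ end, which it shares with Zbtb22, and not of the weaker region over its RefSeq start (2.00 and 5.12 in the HP replicates). No value of Tap1, Tap2, Psmb9, Nlrc5 or Cd274 exceeded 26.4 in any library.

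**Figure D2:**
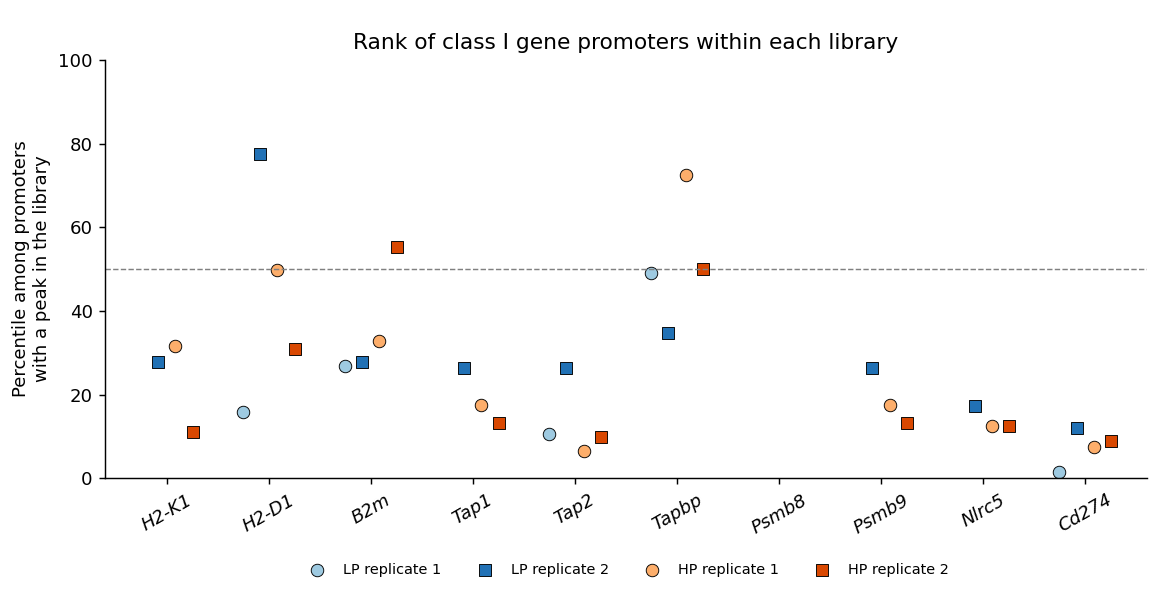
Percentile of each gene's promoter pileup among all protein-coding promoters with a peak in the same library, from 0 to 100, with 1 point per library and the median as a dashed line at 50. Genes without a point in a library had no promoter peak there, and the 4 points above the line belong to H2-D1, B2m and Tapbp.

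H2-D1 (ENSMUSG00000073411.11, chr17:35262730-35267499, plus strand) and H2-K1 (ENSMUSG00000061232.16, chr17:33996017-34000347, minus strand) encode the classical heavy chains. The H2-D1 promoter region, chr17:35262957-35263972 over its first exon, had a scaled pileup of 1.31 in LP replicate 1, 4.62 in LP replicate 2, 4.27 in HP replicate 1 and 4.49 in HP replicate 2. A single LP library was low and the other 3 libraries lay close together, so LP and HP overlapped. The raw pileups were 15, 71, 49 and 64 fragments, with a fold enrichment over local background of 4.40, 24.1, 12.8 and 26.4. The X2 and Y boxes printed above were upstream of the summits, and the peaks covered 0, 187, 109 and 161 of the 300 promoter bases.

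The H2-K1 promoter region, chr17:33999540-34000377 over the start, had no peak in LP replicate 1. Its scaled pileup was 1.63 in LP replicate 2, 2.87 in HP replicate 1 and 1.68 in HP replicate 2. LP replicate 2 and HP replicate 2 were thus almost equal (log2 ratio 0.05), and the HP replicates differed by more than that (log2 −0.77, replicate 2 over 1). Of the 300 printed bases, the peaks of both replicates 2 covered 80 in LP and 36 in HP, and the HP replicate 1 peak lay just downstream.

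B2m (ENSMUSG00000060802.8, chr2:122147686-122153083, plus strand), the shared light chain, had its strongest peak in HP replicate 2. Its promoter region, chr2:122147648-122148872 from the start into the first intron, stood at 1.83 in LP replicate 1, 1.63 in LP replicate 2, 2.96 in HP replicate 1 and 7.72 in HP replicate 2. Both HP values were above both LP values, and the HP replicates were further apart (log2 1.38) than the LP replicates (log2 −0.17). The summits lay 352 to 412 bp downstream of the start in all 4 libraries. A weaker region upstream, chr2:122147136-122147539, was called in LP replicate 2 (0.586) and HP replicate 1 (1.39), and chr2:122146640-122146939 in HP replicate 2 alone (0.982). The B2m ISRE and the X2 core at −78 lie in the stretch between the upstream region and the promoter region.

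Tap1 (ENSMUSG00000037321.17, chr17:34187553-34197225, plus strand) and Psmb9 (ENSMUSG00000096727.3, chr17:34181987-34187764, minus strand) start next to each other on opposite strands. Psmb9 encodes a catalytic subunit of the immunoproteasome. A single region, chr17:34187596-34188501, lay at both starts and cannot be assigned to either gene. It had no peak in LP replicate 1 and reached 1.56 in LP replicate 2, 1.92 in HP replicate 1 and 2.03 in HP replicate 2, on 22 to 29 fragments. The 3 values spread over a narrow range, with a log2 ratio of 0.38 between HP and LP in replicate 2. HP replicate 2 had a second peak in the Psmb9 exon next to it, chr17:34187001-34187309, at 0.772. A peak in a Tap1 intron, chr17:34192875-34193147, was called in LP replicate 2 alone, at 0.586.

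Psmb8 (ENSMUSG00000024338.15, chr17:34197721-34201454, plus strand), the other immunoproteasome subunit of this cluster, was the class I gene without a called promoter peak in any library. The nearest peak to its RefSeq start was 6411 bp away in LP replicate 1, 5048 in LP replicate 2, 6623 in HP replicate 1 and 6314 in HP replicate 2. The region within 3 kb of its 3′ end is the Tap2 region described next.

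Tap2 (ENSMUSG00000024339.12, chr17:34203527-34216321, plus strand) had its peak in the first part of the gene and not at the annotated 5′ end. The region chr17:34204450-34205115, intronic and centred 1255 bp into the gene, reaches an internal start at 34205100 and counts as promoter for that reason. It had 1.05 in LP replicate 1, 1.56 in LP replicate 2, 1.13 in HP replicate 1 and 1.54 in HP replicate 2. The replicates differed (log2 0.58 in LP and 0.45 in HP) more than HP and LP did within replicate 1 (0.11) or 2 (−0.02). LP replicate 2 alone had a further intronic peak at chr17:34205581-34206047 and a downstream peak at chr17:34218472-34218896, both at 0.586.

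**Figure D3:**
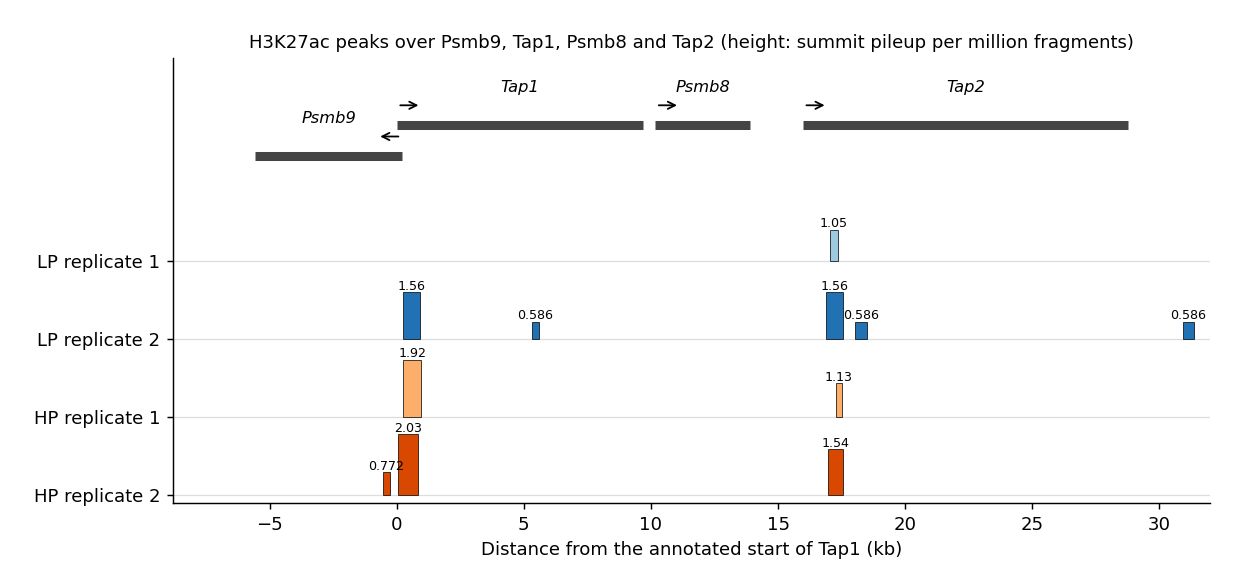
Peaks over the cluster of Psmb9, Tap1, Psmb8 and Tap2, drawn to scale by distance in kb from the annotated start of Tap1, with genes and their direction at the top and 1 row per library. Bar width is the peak and bar height and number its scaled summit pileup. Peaks gather at the shared Psmb9 and Tap1 start in 3 libraries and inside Tap2 in all 4, with none at the Psmb8 start.

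Tapbp (ENSMUSG00000024308.15, chr17:33915899-33929292, plus strand) had regions called in all 4 libraries at its 5′ end and at an internal start. Its 5′ region, chr17:33916000-33916586, is also at the start of Zbtb22, a zinc finger gene on the same strand. It stood at 3.05 in LP replicate 1, 1.95 in LP replicate 2, 6.71 in HP replicate 1 and 6.94 in HP replicate 2. Both HP values were above both LP values, and the HP replicates were nearly equal. The region at the internal start, chr17:33919170-33920883, which covers the RefSeq start at 33919478, had 1.13, 1.69, 2.00 and 5.12 in the same order. Again both HP values were the higher ones, with HP replicate 2 far above the rest. At the 3′ end the region chr17:33928992-33930787, at the start of Rgl2, had 2.35, 2.15, 3.40 and 5.54. Its start belongs to the neighbouring gene, and it is counted here because it lies within 3 kb of Tapbp.

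Nlrc5 (ENSMUSG00000074151.13, chr8:94434356-94527272, plus strand), the transactivator, is the longest of the 10 genes. Its promoter region, chr8:94434125-94434843, had no peak in LP replicate 1, 1.17 in LP replicate 2, 1.57 in HP replicate 1 and 1.89 in HP replicate 2. The log2 ratio of HP over LP was 0.69 in replicate 2, and the HP replicates differed by 0.27. In HP replicate 1 the peak was weak, with a −log10 q-value of 2.18. The gene held 12 further regions, each called in a single library, with scaled pileups of 0.421 to 0.958. None of the 12 was therefore shared between replicates.

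Cd274 (ENSMUSG00000016496.7, chr19:29367455-29388095, plus strand) had the lowest promoter pileup of the 5 genes called in all 4 libraries, except in HP replicate 1, where Tap2 was lower. Its region chr19:29366698-29367691, which also lies at the start of Plgrkt on the other strand, had 0.523 in LP replicate 1, 0.977 in LP replicate 2, 1.22 in HP replicate 1 and 1.40 in HP replicate 2. Both HP values were above both LP values, on 6, 15, 14 and 20 fragments. An intronic region 4236 bp downstream of the start, chr19:29371491-29371892, was called in HP replicate 1 (1.04, 12 fragments) and HP replicate 2 (0.702, 10 fragments) and in neither LP library. Peaks at chr19:29384225-29384510 and chr19:29385517-29385778 were called in LP replicate 2 alone.

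That Cd274 intron region was the 1 of 34 regions called in both HP replicates and neither LP replicate, and 0 showed the reverse. Over the windows of all protein-coding genes, 4.61% of 109927 regions were called only in HP in this way and 0.257% only in LP. Its 12 fragments in HP replicate 1 and 10 in HP replicate 2 compare with library medians of 10 and 12 and a lowest listed pileup of 5 in both. Without LP replicate 1 the balance turned, to 1 region found in HP alone and 8 in LP alone, where a call in LP replicate 2 alone then counted. Of the 34 regions, 22 (64.7%) were called in 1 library, 2 in 2, 3 in 3 and 7 in all 4 libraries. The share called in 1 library was 76.1% over all protein-coding genes.

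The 7 regions called in all 4 libraries could be compared between HP and LP with limma, fitted over all 12084 such regions of the series on the log2 scaled pileup. None of the 7 passed a Benjamini-Hochberg adjusted p of 0.05. Of all 12084 regions, 4.01% were higher in HP and 0% lower, and at an unadjusted p under 0.05 the shares were 36.2% and 0%. In 5 of the 7 regions both HP values were above both LP values, which held in 74.8% of all regions. Of the 7 regions, 3 had an unadjusted p under 0.05, all higher in HP. Nearly all regions of the series leaned the same way, with 99.0% of log2 ratios above 0, a median of 0.92 over all and 0.88 over promoter regions. This shift was 0.57 in replicate 1 and 1.30 in replicate 2. It vanished by construction when each library was centred on its median, and with it every call (0 of 12084). The ratios of the 7 regions fitted with all 4 libraries are therefore given below also after centring. Other ratios of single genes below are given without centring.

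B2m and the 5′ region of Tapbp had the highest ratios. For B2m the log2 ratio of HP over LP was 1.47 (95% interval 0.40 to 2.53, limma adjusted p = 0.0719) and 0.46 after centring. Replicate 1 gave 0.69 and replicate 2 gave 2.24. The B2m estimate was 2.16 without HP replicate 1 (adjusted p = 0.000955) and 0.78 without HP replicate 2 (adjusted p = 0.410). In every fit that left out a library, its group had a single library, which was assumed to vary like the other group, so these p-values rest on the spread between the 2 libraries of that other group. For the Tapbp and Zbtb22 start it was 1.48 (0.42 to 2.55, adjusted p = 0.0702) and 0.47 after centring, with 1.14 in replicate 1 and 1.83 in replicate 2. Neither gene thus passed the threshold with all 4 libraries, and after centring the unadjusted p-values were 0.287 for B2m and 0.273 for Tapbp. The standard error of a log2 ratio was 0.54 for every region.

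The internal Tapbp start had a log2 ratio of 1.21 (0.14 to 2.27, adjusted p = 0.110), or 0.20 after centring. At Rgl2 the ratio was 0.95 (−0.12 to 2.01, adjusted p = 0.170), which turned to −0.06 after centring. Without HP replicate 1, the 3 Tapbp regions passed the threshold, with 1.51 at the 5′ start (adjusted p = 0.0139), 1.89 at the internal start (adjusted p = 0.00298) and 1.30 at Rgl2 (adjusted p = 0.0304). The same omission raised the calls over all regions from 485 to 6921.

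Cd274 had a log2 ratio of 0.87 (−0.19 to 1.94, adjusted p = 0.197), close to the median of all regions, and −0.14 after centring. For H2-D1 it was 0.83 (−0.23 to 1.90, adjusted p = 0.212) and −0.18 after centring. Its ratio came from replicate 1 (1.71) and was −0.04 in replicate 2. Leaving LP replicate 1 out gave −0.08 (adjusted p = 0.940). Tap2 had the lowest ratio, 0.05 (−1.02 to 1.11, adjusted p = 0.935), and −0.96 after centring (unadjusted p = 0.0251, adjusted p = 1.000). The intervals of these 3 genes span 0 and also hold the shift of the whole series.

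**Figure D4:**
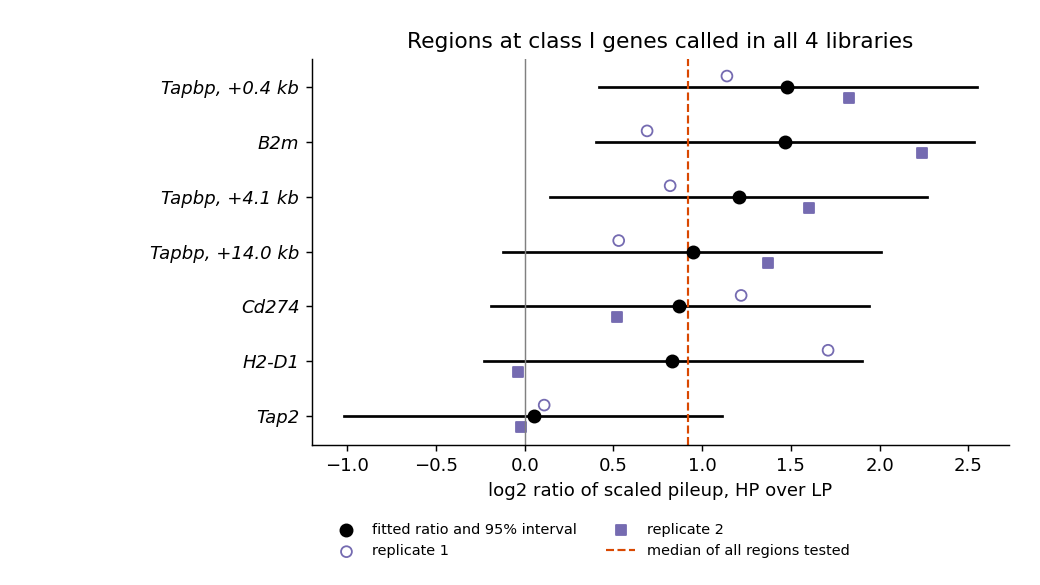
Log2 ratio of scaled pileup, HP over LP, for the 7 regions called in all 4 libraries, with Tapbp regions named by the distance of their midpoint from its annotated start. Black points and lines are the limma estimate and its 95% interval, open circles replicate 1, squares replicate 2, and the dashed line the median of all 12084 regions (0.92). All 7 intervals reach 0.92, and H2-D1 and Tap2 have a replicate below 0.

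Taking the 5 promoter regions among these, the median log2 ratio was 0.87 with a range of 0.05 to 1.48, beside 0.88 over 8541 promoter regions of the series. In 3 of the 5, B2m, Tapbp and Cd274, both HP values were above both LP values, as in 73.7% of promoter regions of the series. Leaving out LP replicate 1 brought in the 3 regions it lacked. The log2 ratio was then 0.43 at H2-K1 (adjusted p = 0.670), 0.34 at Tap1 and Psmb9 (adjusted p = 0.737) and 0.56 at Nlrc5 (adjusted p = 0.591), and the median over 8 gene promoters was 0.43, where all 17489 regions had 0.89. None of the 17489 regions passed the threshold in that fit.

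The wider pathway was read from 8 lists with 61 genes, of which 60 were annotated as protein-coding. A promoter peak was present in all 4 libraries for 34 of the 60 and in none for 11, beside 44.6% and 37.3% of all protein-coding genes. Of the 34 promoter regions tested, 1 rose in HP and 0 fell by limma with an adjusted p under 0.05, and unadjusted p-values were under 0.05 at 7 and 0 of them. Among all promoter regions, 2.51% were called higher. Of all regions tested, promoter or not, 36.2% were higher at an unadjusted limma p under 0.05. All 34 ratios were above 0, as were 99.0% of those of all regions tested. Their median was 0.72, below the 0.88 over all promoter regions tested, with a range of 0.18 to 1.76.

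The region called was at Psmb6, the standard proteasome subunit that Psmb9 replaces. Its scaled pileup was 0.523 in LP replicate 1, 0.912 in LP replicate 2, 1.31 in HP replicate 1 and 4.21 in HP replicate 2, a log2 ratio of 1.76 (adjusted p = 0.0474). The call was lost with the replicate block, with centring, with stricter peak lists and without LP replicate 1, LP replicate 2 or HP replicate 2. Psmb5 and Psmb7, which Psmb8 and Psmb10 replace, had 0.93 (adjusted p = 0.177) and 0.67 (adjusted p = 0.290). All 3 standard subunits had a promoter peak in all 4 libraries, where Psmb8 had none and Psmb9 had 3.

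Psmb10, the remaining immunoproteasome subunit, had a peak in its promoter window in both HP replicates (1.39 and 1.61) and in neither LP replicate, but LP replicate 2 had a peak of 1.04 in the same merged region, outside that window. Rfxank, a subunit of the RFX complex, had a promoter peak in both HP replicates (1.04 and 3.65) and none in LP in the whole region. These were the 2 of 60 genes with promoter peaks in both HP replicates and neither LP replicate, beside 1.42% of all protein-coding genes. The proteasome activator genes Psme2 and Psme3 had log2 ratios of 1.43 (adjusted p = 0.0767) and 1.10 (adjusted p = 0.128). Psme1 had a peak in every library but LP replicate 1.

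Of 6 genes of peptide loading and trimming, 5 had a promoter peak in all 4 libraries. Canx, a chaperone of new heavy chains, had 18.6 and 8.92 in LP and 9.67 and 22.1 in HP. The groups overlapped, and the log2 ratio was 0.18 (adjusted p = 0.752). Calr, the chaperone of the loading complex, had 1.22 and 2.21 in LP and 2.96 and 6.24 in HP (log2 1.39, adjusted p = 0.0821). The ratios of Pdia3, Erap1 and Hspa5 were 0.69, 0.62 and 0.50. Tapbpl, a tapasin relative, had no peak in LP replicate 1, as with 4 of the 10 genes above.

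Of the other class I heavy chains, most had little promoter signal. H2-Q4 was the 1 of 11 with a peak in all 4 libraries, at 1.66 and 2.28 in LP and 4.62 and 4.63 in HP (log2 1.25, adjusted p = 0.103). H2-Q2, H2-Q7, H2-Q10 and H2-T22 had none in any library. The other 6 had peaks in 1 to 3 libraries, with scaled pileups of at most 1.39.

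The list of transcription factors of class I genes was acetylated in all 4 libraries at 11 of 12 promoters, with a median log2 ratio of 0.67. It also counts Ezh2, which is a histone methyltransferase and not such a factor. The highest ratios were those of Irf1 (0.87, adjusted p = 0.198), Irf2 (0.86, adjusted p = 0.200) and Rfx5 (0.83, adjusted p = 0.212), and the lowest those of Rela (0.22), Nfyc (0.31) and Ezh2 (0.45). In LP replicate 2 and in both HP replicates, each of the 11 promoters had a higher scaled pileup than that of Nlrc5. These 11 were taken for a peak in all 4 libraries, which Nlrc5 lacked. The remaining gene, Rfxank, had no peak in LP replicate 2. It was below Nlrc5 in HP replicate 1 (1.04 against 1.57) and above it in HP replicate 2 (3.65 against 1.89). Of the 11, the nearest to Nlrc5 was Irf1, an effector of interferon gamma, with 2.44 and 1.95 in LP and 3.92 and 4.07 in HP.

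Of 11 genes for interferon receptors and signalling, 9 had a promoter peak in all 4 libraries and a median log2 ratio of 0.77. Ifnar2 (1.42, adjusted p = 0.0781) and Socs1 (1.16, adjusted p = 0.118) were highest, and Ifnar1 (0.29), Ifngr2 (0.40) and Jak1 (0.43) lowest. Both chains of the interferon gamma receptor and both of its kinases had peaks in all 4 libraries. Irf9 had none in LP replicate 1, and Tyk2 had 1 in HP replicate 2 alone.

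Among checkpoint and related ligands, Cd276 (log2 1.03, adjusted p = 0.146) and Cd47 (log2 0.94, adjusted p = 0.173) had promoter peaks in all 4 libraries. Pdcd1lg2, which encodes PD-L2 and lies next to Cd274, had none, and neither had Vtcn1 and Nt5e. Of 7 class II genes, H2-DMa alone had a peak in all 4 libraries (13.9 and 6.12 in LP, 8.19 and 23.1 in HP, log2 0.58, adjusted p = 0.350). For H2-DMa, as for the other list genes, it was not examined whether a neighbouring gene starts at the same region. Cd74, H2-Aa, H2-Eb1 and H2-DMb1 had none in any library. Ciita, the class II counterpart of Nlrc5, had a peak of 0.772 in HP replicate 2 alone.

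The base composition of the class I promoters was near that of the average promoter. The ratio of observed to expected CpG ran from 0.52 at Psmb8 to 0.72 at Cd274, beside a median of 0.58 over all promoters, and 4 of the 8 genes lay under it. Among 16414 promoters matched to GENCODE by symbol, those under that median had a peak in all 4 libraries in 15.7% of cases and the others in 76.6%. Psmb8, the gene with no peak, had the lowest CpG ratio of the 8, and of the genes without a peak in LP replicate 1, H2-K1 (0.56) and Tap1 (0.55) were under the median and Psmb9 (0.60) above it. Tapbp, with 0.56, had peaks in all 4 libraries, and the part of CpG content in these patterns was not tested.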

How the data were processed

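H3K27ac ChIP-seq libraries of LP and HP B16 F10 cells, 2 replicates each, were grouped by their labels. The authors trimmed reads (Trimmomatic 0.33), aligned them to mm10 (Bowtie2 2.5.1) and called narrow peaks with MACS 3.0.0b1 at a q-value of 0.05. The control of each library was the IgG sample of its replicate number (8701778 and 19358733 fragments). The pileup signal at each summit was deposited by the authors as whole fragments, duplicates included, without scaling. Fold enrichment (a ratio to local background) and the −log10 q-value are the authors' MACS values and were used to describe or filter peaks.

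Pileups were divided by total fragments and multiplied by 1000000. Regions merged peaks that overlapped by at least 1 bp, and a region took its highest summit. limma 3.58.1 (R 4.3.3) compared log2 scaled pileups over regions called in all 4 libraries, with Benjamini-Hochberg adjustment over all of them. Its prior degrees of freedom were infinite. DiffBind needs reads, which were not used here. A gene's promoter region was the one called in most libraries, then nearest the 5′ end of the gene, then widest. Of the lists, all called genes, the highest and lowest 3 ratios of longer lists, all of shorter ones and those without a peak were named. Other genes served as examples. Some items that this rule covers are not reported here.

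Same-numbered libraries shared an IgG library and, by the labels, an equal amount of DNA per replicate set, which pairs them. The replicate differences of LP and HP correlated at 0.0153 over regions. The block was an alternative, and it changed no call at the 10 genes. Nothing in the labels places replicates in separate cultures, so p-values measure the spread between these libraries. That spread was pooled over all regions fitted, and a region's own replicate spread did not enter its p-value. Fragments were not molecule-tagged, so pileups carry counting error beyond their number. The 10 genes and the lists were chosen with earlier results of these data known. Merging and limma were tested on simulated data. Recovery of set changes by limma was required only where the noise was far below that of these libraries. Python 3.11.15 with pandas 2.3.3, numpy 2.4.6 and matplotlib 3.10.9 was used.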

Additional observations from a re-analysis of the deposited data

How the results depend on the processing

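The count of genes with a promoter peak in every library was 5, and 5 to 9 when a library was left out, with 9 without LP replicate 1. The count of regions called only in HP was 1 and became 1 to 10 when a library was left out, 4 within 10 kb of the genes, and 9 on average within replicate numbers (the replicate block). The count called only in LP was 0, and became 0 to 8 when a library was left out (8 without LP replicate 1, 2 without LP replicate 2), 0 within 10 kb and 5.5 with the replicate block. Over all regions the 485 calls became 33 with peaks of q at most 0.001, 0 with centring, quantile normalization or mean summit pileups, 9 with scaling to fragment length, 88 with the replicate block, and 0 to 6921 when a library was left out. The highest of these was without HP replicate 1, with 6919 higher and 2 lower. The 0 calls at the 7 class I regions ranged from 0 to 4 when a library was left out and stayed 0 with the replicate block, where calls elsewhere fell to 88.

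The median promoter log2 ratio of 0.87 was −0.14 after centring, 0.02 after quantile normalization, and 0.43 to 1.32 when a library was left out. The 1 call in the wider pathway was 0 with q at most 0.01 or 0.001, centring, quantile normalization, fragment length, mean summits and the replicate block, and 0 to 16 when a library was left out. Single ratios that turned negative were those at Rgl2 (−0.06 centred, −0.07 quantile), Tap2 (−0.96 centred, −0.93 quantile, −0.24 to 0.34 when a library was left out), H2-D1 (−0.18 centred, −0.29 quantile, −0.08 to 1.74 when a library was left out) and Cd274 (−0.14 centred). The cause of these changes was not tested, except that centring removes the shared shift by construction. Of the other values of single regions, 69 kept direction and side of the threshold and 4 passed it when HP replicate 1 was left out.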
